A study of Mus musculus with 6 samples.

Results

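Schwann cells ensheath the axons of peripheral nerves, and the ear skin that ticks bite is crossed by nerve branches that hold both myelinating and nonmyelinating Schwann cells. To describe the nerve content of the bite site, 8 Schwann cell and myelin genes were taken from the gene table by symbol. The rule used no measured value, although the genes were chosen with earlier results of these data known. They were Mbp, Pmp22, Prx, Mag, Sox10, S100b, Cdh19 and Gfra3. All 8 were among the 15667 genes listed, and 7 of them passed the filter on low values that left 14306 genes tested. RNA-seq was performed on ear skin of 3 mice with an intact adiponectin gene (WT, Adipo+/+) and 3 littermates homozygous for a null allele of it (KO, Adipo-/-). The mice were females of 7 to 8 weeks from heterozygous breeding pairs of B6;129-Adipoqtm1Chan/J mice, a mixed background, and the allele removes adiponectin from the whole animal. In both groups 10 Ixodes scapularis ticks fed on each mouse for 48 h, and 1 punch of 3.5 mm was taken at a bite site on the ear. Unbitten skin was not analysed here.

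In a myelinating Schwann cell the plasma membrane wraps an axon many times and is packed by dedicated proteins. SOX10, a transcription factor of the neural crest, is needed in every Schwann cell and acts with EGR2 to switch on the myelin genes. Nonmyelinating (Remak) Schwann cells hold bundles of thin sensory axons and express little of the myelin set. In the skin SOX10 is also a factor of melanocytes, which come from the same precursors. S100B is made by chondrocytes and fat cells as well as by glia, and PMP22 and MBP transcripts occur outside nerve too.

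The level of each gene is given as counts per 1000000 reads (CPM). Implied depth was 3403773 to 6591320 reads per library, so that 3 reads stood for 0.455 to 0.881 CPM. Adipoq, the targeted gene, was at 30.5 to 63.7 CPM in WT and at 0 to 0.560 CPM in KO, which matched all 6 labels. The libraries differed strongly in hair follicle genes. The inner root sheath keratin Krt71 was at 4035 CPM in WT replicate 3, at 160 to 1318 CPM in KO and at 0 and 0.407 CPM in WT replicates 1 and 2. At an unadjusted p below 0.05 in limma, 260 genes were lower and 152 higher in KO, and 2 genes, Adipoq and Gm12191, passed after adjustment over all genes tested.

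Mbp, Pmp22, Prx, Sox10, S100b and Cdh19 were detected in each of the 6 libraries. Among the 8 genes, Mag and Gfra3 were each at 0 in 1 library. Divided by exon length (the union of exons in GENCODE M21, which may differ from the annotation of the deposited table), Pmp22 was the highest at 44.8 CPM per kb, followed by Mbp at 11.7, S100b at 5.92, Prx at 3.41, Cdh19 at 1.50, Sox10 at 0.854, Mag at 0.260 and Gfra3 at 0.257 CPM per kb (means over 6 libraries). The order of neighbours held in all 6 libraries down to Sox10, and in 5 of 6 libraries for Sox10 over Mag and for Mag over Gfra3. Among neighbours in this order, the ranges over libraries were apart between Pmp22 and Mbp and between Prx and Cdh19, and overlapped for the others.

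Promoter sequences were examined because SOX10 and EGR2 are known regulators of myelin genes. RefSeq windows (GRCm38.p6) of 300 bases ran from 250 before to 50 after a transcription start and were matched to genes by symbol. They were read for only 4 of the 8 genes, Mag, Prx, S100b and Pmp22, with 9 windows in all. Windows of Mbp, Sox10, Cdh19 and Gfra3 were left out, so whether these genes hold a match was not tested. The letters ACAAAG and ACAATG (SOX) and GCGNGGGCG and GTGGGCG (EGR) were searched on both strands. Among all 32851 windows 18.7% held ACAAAG, 12.6% ACAATG, 5.55% GCGNGGGCG and 7.97% GTGGGCG. Of the 9 windows 2 overlapping ones held a match, both of the same ACAAAG in Mag. The windows of Mag (chr7:30914873-30915172, minus strand), of Prx (chr7:27499074-27499373, plus strand) and of S100b (chr10:76253586-76253885, plus strand) are shown because Mag was the gene with a match, Prx is a myelin gene without one, and S100b varied unlike the others among the libraries. Each is printed 5′ to 3′ on the strand of the gene, and the capitals mark the match, which starts at base 184 of the window and lies on the opposite strand.
Mag: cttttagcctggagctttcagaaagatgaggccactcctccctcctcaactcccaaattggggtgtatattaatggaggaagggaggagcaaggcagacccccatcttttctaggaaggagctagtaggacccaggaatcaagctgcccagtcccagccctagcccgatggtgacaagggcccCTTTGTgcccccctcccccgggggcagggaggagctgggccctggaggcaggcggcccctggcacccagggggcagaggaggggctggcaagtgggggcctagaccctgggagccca
Prx: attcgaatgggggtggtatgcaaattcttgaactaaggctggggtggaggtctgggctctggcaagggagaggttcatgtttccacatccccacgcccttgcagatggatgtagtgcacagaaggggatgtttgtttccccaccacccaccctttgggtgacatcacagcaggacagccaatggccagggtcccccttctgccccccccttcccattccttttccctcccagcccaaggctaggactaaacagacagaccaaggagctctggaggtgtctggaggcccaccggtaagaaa
S100b: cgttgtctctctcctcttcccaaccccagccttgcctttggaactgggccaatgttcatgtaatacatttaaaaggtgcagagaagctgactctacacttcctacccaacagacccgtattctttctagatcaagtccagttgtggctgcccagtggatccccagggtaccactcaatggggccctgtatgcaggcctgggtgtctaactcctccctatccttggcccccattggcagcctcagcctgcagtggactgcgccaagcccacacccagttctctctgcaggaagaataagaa
A match of 6 letters is a description and not a site of binding. Bases just after the start were found in a GENCODE transcript of the gene for the Prx window shown. They were not found for the Mag and S100b windows shown. For the overlapping Mag window with the same match, which is not shown, they were found.

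Expression of the 4 myelin protein genes was compared first. Positions are on GRCm38 (mm10). Mbp (chromosome 18, 82475123 to 82585637, plus strand) encodes myelin basic protein, which seals the cytoplasmic faces of the myelin membrane. Its level was 95.1 CPM in WT replicate 1, 104 in WT replicate 2 and 82.6 in WT replicate 3, and the KO replicates had 97.7, 122 and 92.3 CPM in the same order of number, which is kept for all genes that follow. KO replicate 2 was the highest and WT replicate 3 the lowest, and the groups overlapped. The means were 93.9 ± 10.7 CPM for WT mice and 104 ± 15.8 CPM for KO mice (SD, n = 3 each), a fold of 1.10 with a 95% interval of 0.877 to 1.39 in limma (log2 fold change 0.14, SE 0.14, adjusted p = 0.998). Of the 7 genes tested Mbp had the narrowest interval, which left out a rise of more than 1.39-fold and a fall below 0.877 of the WT level.

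Pmp22 (chromosome 11, 63128982 to 63159547, plus strand) encodes a small membrane protein of compact myelin whose gene dosage is critical in inherited neuropathy. The WT libraries gave 96.3, 138 and 89.9 CPM and the KO libraries 88.1, 127 and 93.7 CPM. The second replicate stood highest in each group, and the remaining 4 libraries lay between 88.1 and 96.3 CPM. The means were 108 ± 25.9 CPM for WT mice and 103 ± 20.8 CPM for KO mice (SD, n = 3 each), with a fold of 0.958 and an interval of 0.697 to 1.32 (log2 fold change -0.06, SE 0.20, adjusted p = 0.998 in limma).

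Prx (chromosome 7, 27499324 to 27520041, plus strand) encodes periaxin, a scaffold that ties the outer face of the myelinating Schwann cell to its basal lamina. It was at 21.8, 15.5 and 19.8 CPM in the 3 WT libraries and 15.6, 26.3 and 15.0 CPM in the 3 KO libraries. The KO libraries enclosed the WT libraries, with the highest and the lowest value both in KO. The means differed by less than the spread between libraries, 19.0 ± 3.23 CPM for WT mice and 19.0 ± 6.38 CPM for KO mice (SD, n = 3 each), a fold of 0.976 with an interval of 0.651 to 1.46 (log2 fold change -0.04, SE 0.25, adjusted p = 0.998 in limma).

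Mag (chromosome 7, 30899175 to 30914922, minus strand), the adhesion molecule of the membrane that faces the axon, was close to the limit of detection. The WT replicates held 3, 10 and 0 reads (0.726, 2.03 and 0 CPM) and the KO replicates 7, 8 and 1 reads (1.06, 2.24 and 0.294 CPM). The order of the 6 libraries was the same for Mag as for Mbp (Spearman's rho 1.0, n = 6, with Pearson's r 0.92 on the log2 scale), and no such full match was seen for another pair of the 7 genes tested. The fitted fold of Mag was 1.30 with an interval of 0.405 to 4.16 (log2 fold change 0.38, SE 0.73, adjusted p = 0.998 in limma). A difference of 2-fold in either direction was therefore not excluded. Its direction turned without WT replicate 3 (log2 fold change -0.23).

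The genes that mark Schwann cells whether or not they make myelin were compared next. Sox10 (chromosome 15, 79154913 to 79164490, minus strand) was at 1.94, 1.42 and 3.30 CPM in the 3 WT libraries and 2.43, 4.20 and 2.35 CPM in the 3 KO libraries, from 7 to 20 reads per library. KO replicate 2 was the highest and WT replicate 3 the next. The means were 2.22 ± 0.968 CPM for WT mice and 2.99 ± 1.05 CPM for KO mice (SD, n = 3 each), with a fold of 1.30 and an interval of 0.694 to 2.44 (log2 fold change 0.38, SE 0.39, adjusted p = 0.998 in limma).

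S100b (chromosome 10, 76253836 to 76261319, plus strand) encodes a calcium-binding protein long used to stain Schwann cells. It was at 7.02, 6.71 and 8.57 CPM in the 3 WT libraries and 7.59, 7.85 and 15.0 CPM in the 3 KO libraries. KO replicate 3 alone stood apart, and the other 5 libraries lay between 6.71 and 8.57 CPM. The means were 7.44 ± 0.997 CPM for WT mice and 10.1 ± 4.20 CPM for KO mice (SD, n = 3 each), a fold of 1.29 with an interval of 0.798 to 2.07 (log2 fold change 0.36, SE 0.30, adjusted p = 0.998 in limma). Without KO replicate 3 the log2 fold change was 0.06. In GENCODE S100b overlaps Dip2a on the opposite strand, as Mbp overlaps Rpl21-ps8 and Prx overlaps Gm15541. The sources used here do not say whether strand entered the counting, and without strand the reads of such pairs cannot be told apart.

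Cdh19 (chromosome 1, 110888326 to 110977593, minus strand), a cadherin of the Schwann cell lineage, was at 4.11, 7.73 and 5.44 CPM in the 3 WT libraries and 3.79, 10.4 and 7.05 CPM in the 3 KO libraries. As for Pmp22, the second replicate of each group was its highest. The means were 5.76 ± 1.83 CPM for WT mice and 7.07 ± 3.29 CPM for KO mice (SD, n = 3 each), with a fold of 1.16 and an interval of 0.620 to 2.17 (log2 fold change 0.21, SE 0.39, adjusted p = 0.998 in limma). The direction turned without KO replicate 2 (log2 fold change -0.10). In GENCODE Cdh19 overlaps Gm38255 and Gm36944 on its own strand, so its level is uncertain to the extent that reads were shared with them.

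Gfra3 (chromosome 18, 34689898 to 34720387, minus strand) encodes the receptor of artemin, found on nociceptive sensory neurons and on Schwann cells. It did not reach the mean of 1 CPM needed for the test. The WT replicates held 1, 4 and 7 reads (0.242, 0.814 and 1.15 CPM) and the KO replicates 2, 2 and 0 reads (0.303, 0.560 and 0 CPM). Summed, WT held 12 reads and KO held 4. Scaled to depth, KO had 0.371 of the WT level (exact binomial 95% interval 0.0873 to 1.23, which covers counting error only). The interval includes equal levels, and the WT and KO libraries overlapped.

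**Figure D1:**
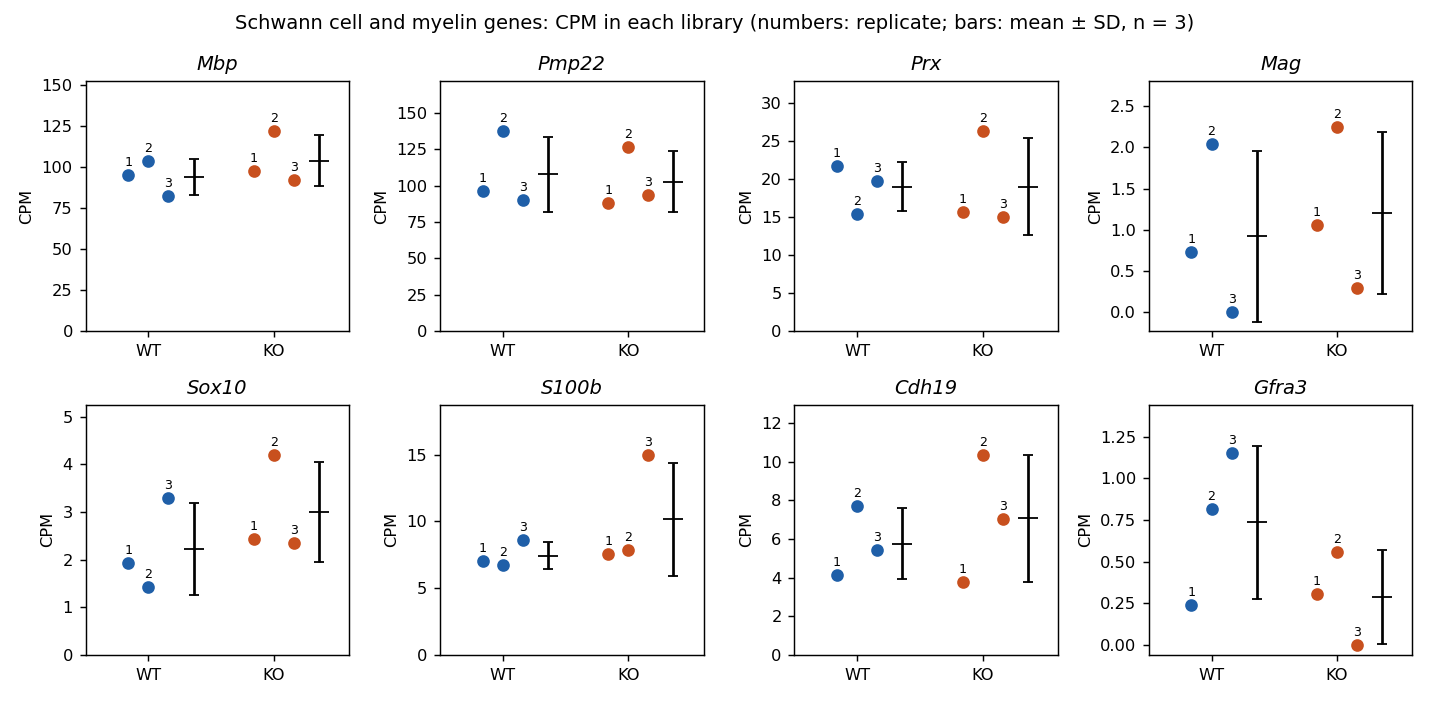
CPM (linear axis) of the 8 genes in the 3 WT libraries (blue) and the 3 KO libraries (orange), with the replicate number above each point and the mean ± SD beside each group. WT and KO points overlap in every panel, KO replicate 2 is the highest library for Mbp, Prx, Mag, Sox10 and Cdh19, and KO replicate 3 alone is high for S100b.

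Among the 7 genes tested, 0 passed the test between KO and WT skin. An unadjusted p below 0.05 in limma was reached by 0 of the 7, against 2.88% of all genes tested, and an adjusted p below 0.05 by 0 of the 7, against 0.014%. The smallest unadjusted p was 0.258, for S100b. The 3 KO values lay wholly to one side of the WT values in 0 of the 7, against 7.84% of all genes tested. An exact permutation test of each gene (two-sided, smallest possible p 0.1 for 3 against 3) gave p from 0.4 to 0.9. The fitted difference was above 0 in 5 of the 7 and below 0 in 2, with a median log2 fold change of 0.21 beside -0.03 over all genes tested. The median was -0.04 without KO replicate 2, over the 6 genes that then passed the filter, and with any other library left out it was 0.05 to 0.35 over 6 or 7 genes. A p that misses the threshold does not show equal levels, and the intervals given for each gene state what these 6 libraries allow. In a tissue punch, fewer Schwann cells and less RNA per Schwann cell cannot be told apart.

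**Figure D2:**
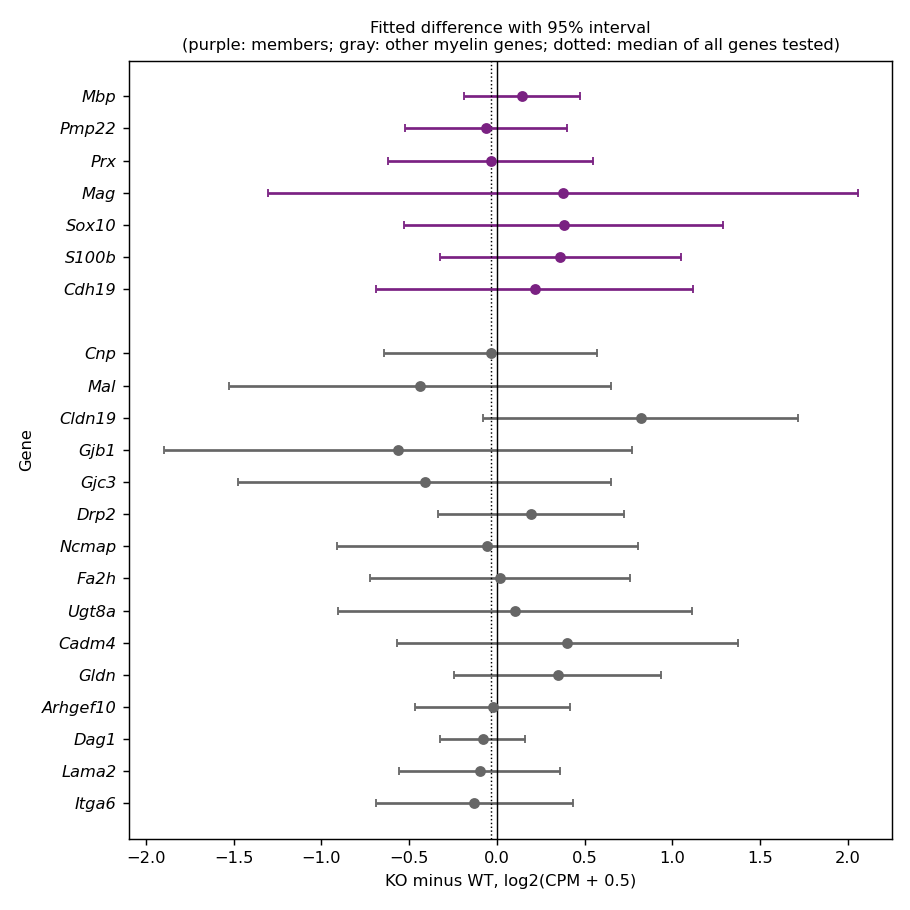
Fitted KO minus WT difference on the log2(CPM + 0.5) scale for the 7 genes tested (purple) and 15 other myelin structure and assembly genes (gray), with 95% intervals from limma and the median of all genes tested as a dotted line. All 22 intervals include 0, Mbp has the narrowest among the purple genes and Mag the widest.

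A wider set of 62 other Schwann cell and myelin genes in 3 lists was then examined, of which 56 were in the table and 52 were tested. Of the 52, 1 had an unadjusted p below 0.05 (against 2.88% of all genes tested) and 0 an adjusted p below 0.05 in limma, 25 had a fitted difference above 0 and 27 below, and the median log2 fold change was -0.02. The groups did not overlap in 3 of the 52 (against 7.84% of all genes tested), with KO above WT for Pou3f1 and Cldn19 and below it for Cadm1. The gene with an unadjusted p below 0.05 was Pou3f1, a POU factor of promyelinating Schwann cells that keratinocytes express as well. It was at 119, 135 and 137 CPM in the 3 WT libraries and 163, 158 and 167 CPM in the 3 KO libraries. All 3 KO libraries stood above all 3 WT libraries, with a fold of 1.25 (interval 1.07 to 1.46, log2 fold change 0.32, SE 0.10, unadjusted p = 0.0121 and adjusted p = 0.998 in limma), so it did not pass over all genes tested.

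Of the 17 myelin structure and assembly genes tested, 7 had a difference above 0, 10 below 0, and 0 reached an unadjusted p below 0.05. Cldn19, the claudin of tight junctions in noncompact myelin, had the highest log2 fold change of the set (0.82, SE 0.39, adjusted p = 0.998 in limma). It was at 1.21, 1.63 and 1.15 CPM (WT) and 1.67, 3.92 and 2.94 CPM (KO), with no overlap between the groups. Cadm4, an adhesion molecule of the inner Schwann cell membrane, and Gldn, gliomedin of the nodes of Ranvier, followed with log2 fold changes of 0.40 and 0.35. Gjb1, the connexin of noncompact myelin, was among the lowest with -0.56. Itga6 and Dag1, at means of 668 and 324 CPM, which anchor Schwann cells and keratinocytes to laminin, had log2 fold changes of -0.13 and -0.08.

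Of the 19 regulators and receptors tested, 12 had a difference above 0 and 7 below 0. The neuregulin receptors Erbb3 and Erbb2, through which axons sustain Schwann cells, were at means of 261 and 197 CPM with log2 fold changes of 0.07 and 0.13. Nrg1, their ligand, had the lowest log2 fold change of the set (-0.99, SE 0.64, adjusted p = 0.998 in limma). It was at 37.8, 15.1 and 5.28 CPM (WT) and 12.0, 5.88 and 4.99 CPM (KO), and the spread of the WT libraries covered all the KO values but the lowest. Cntf, a survival factor made by Schwann cells, had a log2 fold change of -0.47 at a mean of 1.76 CPM. Egr2, the partner of SOX10 at myelin genes, was at 43.8, 51.9 and 79.1 CPM (WT) and 55.2, 65.3 and 54.1 CPM (KO), with overlap. Sox10 was at a mean of 2.61 CPM, far below Erbb3, Erbb2 and Egr2, and which cells gave their reads was not tested. Of the family of Gfra3, the co-receptors Gfra1 and Gfra2 were at 22.0 to 31.4 and 6.22 to 14.9 CPM, and the shared signaling subunit Ret at 4.11 to 19.3 CPM. Artn, the ligand of Gfra3, was not among the genes listed and so was not analysed here.

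Among 16 surface and cytoplasmic genes tested, 6 had a difference above 0, 10 below 0, and 0 an unadjusted p below 0.05 in limma. Chl1, an adhesion molecule of the L1 family, was at a mean of 257 CPM with a log2 fold change of -0.03. Scn7a, a sodium channel typical of nonmyelinating Schwann cells, was at 45.0, 56.3 and 30.0 CPM (WT) and 28.5, 52.4 and 29.4 CPM (KO). The second replicate was again the highest of each group. A list of 8 genes of repair Schwann cells, which lose myelin after injury, had 3 differences above 0, 5 below 0 and 0 with an unadjusted p below 0.05. Jun, a transcription factor of that state, was at 106, 131 and 171 CPM (WT) and 116, 119 and 118 CPM (KO), and is expressed by most skin cells. Of 16 axon and neuron genes 6 were in the table and 5 were tested. The cell bodies of these neurons lie in ganglia outside the skin. The median log2 fold change of these 5 was -0.31 and 0 had an unadjusted p below 0.05. Stmn2, a growth-associated protein of axons, was at 4.84, 7.53 and 3.63 CPM (WT) and 3.79, 3.92 and 4.41 CPM (KO). Tubb3, a neuronal tubulin, was at 15.5, 5.90 and 19.1 CPM (WT) and 9.86, 8.13 and 7.05 CPM (KO). Neither was highest in KO replicate 2.

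The Schwann cell genes varied among libraries within a group. KO replicate 2 was the highest library for 5 of the 7 genes tested, and for 16 of the 52 genes of the wider set. Over all genes tested it was the highest library for 15.1%. By list, it was the highest for 6 of 17 myelin genes, 6 of 16 surface and cytoplasmic genes and 4 of 19 regulators and receptors. The mean log2(CPM + 0.5) of the 7 genes was 3.48, 3.71 and 3.41 for the WT libraries and 3.49, 4.12 and 3.58 for the KO libraries. Apart from KO replicate 2, the 5 libraries spanned 3.41 to 3.71. The summed CPM of the 4 myelin protein genes ran from 192 in WT replicate 3 to 277 in KO replicate 2.

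**Figure D3:**
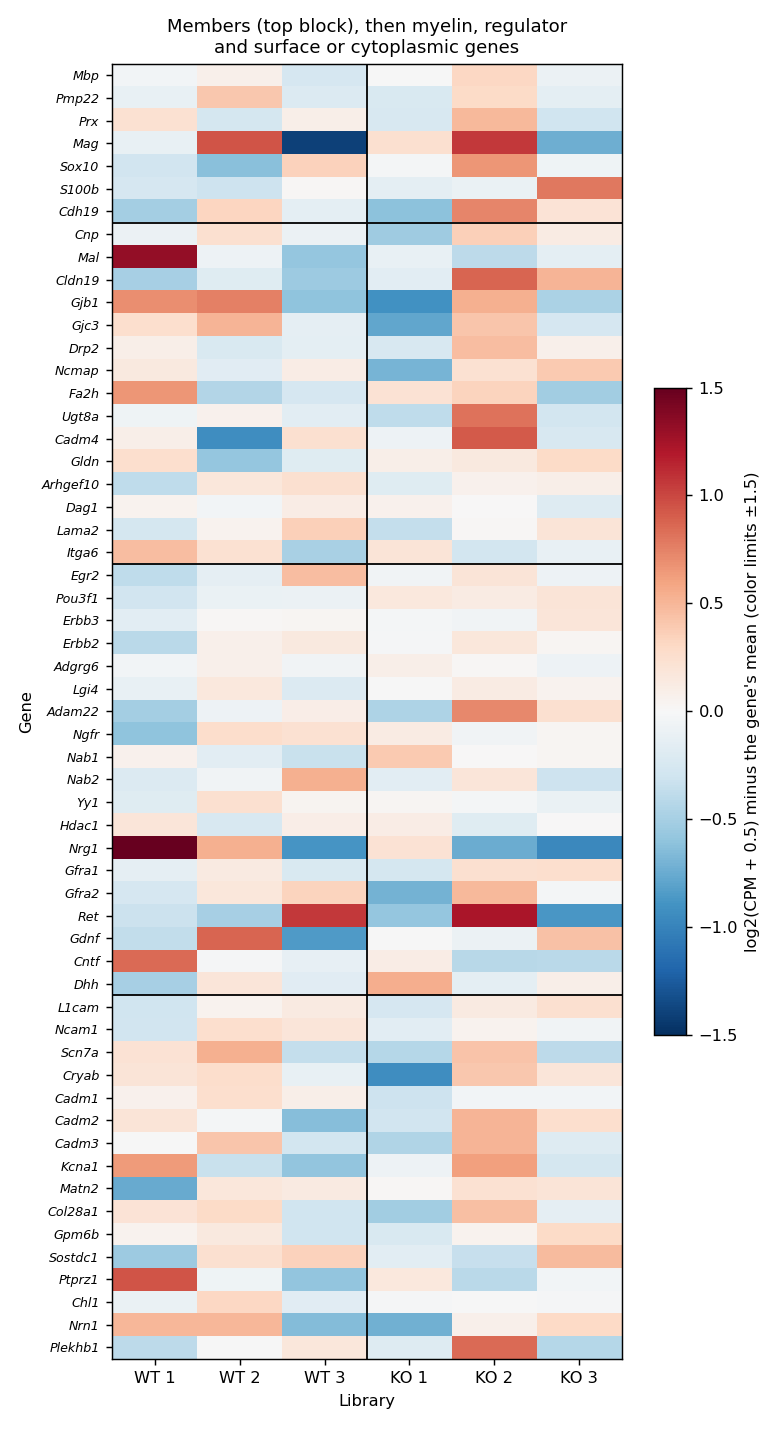
Each row is a gene, each column a library, and the color is log2(CPM + 0.5) minus the mean of the gene over the 6 libraries. The top block holds the 7 genes tested and the blocks under it 15 myelin genes, 19 regulators and receptors and 16 surface and cytoplasmic genes; KO replicate 2 is the reddest column in 5 of the top 7 and in 15 of the 50 lower rows.

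Genes whose pattern was most like that of the 7 were sought over the 6 libraries, with Pearson's r to the mean z-score of the 7 as a description. Among 2347 genes with an SD of at least 0.5 on the log2 scale, the 10 most alike had r from 0.92 to 0.99, and all 10 were highest in KO replicate 2. They were Aldh1a2, Foxp2, Usp35, Zfr2, Sash3, Prkar1b, Pcdhb19, Marco, Lime1 and Gm31679, at means of 1.11 to 5.58 CPM, and 0 of them were in the lists of Schwann cell genes. Genes of smaller SD could not enter, among them Ugt8a of those lists (SD 0.43), whose r of 0.944 was above that of Sash3 (0.938). Aldh1a2, a retinoic acid synthesizing enzyme, was at 4.76 CPM in KO replicate 2 and at 0.455 to 1.22 CPM elsewhere. Marco, a scavenger receptor of macrophages, was at 4.76 CPM in KO replicate 2 and at 0.330 to 1.47 CPM elsewhere. Without the SD filter, an r of at least 0.8 was found for 5 of 52 genes of the wider Schwann cell set (9.62%), beside 2.22% of all genes tested. These were Ugt8a, the galactosyltransferase that makes myelin glycolipids (r 0.94), Adam22, the receptor of LGI4 (0.82), Cldn19 (0.82), Cadm3 (0.82) and Plekhb1 (0.81). All these values of r share the same 6 libraries, of which KO replicate 2 stood apart.

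Markers of other cells that express some of the 8 genes were set beside them. Of 13 cartilage genes tested, 11 were highest in KO replicate 3 (against 13.6% of all genes tested), the library in which S100b was high. Col2a1, the fibrillar collagen of cartilage, was at 8.71, 25.8 and 18.6 CPM (WT) and 23.7, 18.2 and 56.7 CPM (KO). Sox9, a transcription factor of cartilage that hair follicles also express, was at 51.6, 64.1 and 157 CPM (WT) and 58.3, 113 and 80.2 CPM (KO), highest where hair genes were. The summed level of the list was 188 to 370 CPM in WT and 264 to 466 CPM in KO. A difference above 0 was found in 12 of the 13, against 43.3% of all genes tested. Col11a2, a minor cartilage collagen, was the gene of that list with an unadjusted p below 0.05 (log2 fold change 1.09, unadjusted p = 0.00478 and adjusted p = 0.998 in limma). The part of cartilage in the level of S100b was not tested.

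Of 6 melanocyte genes tested, all 6 were highest in WT replicate 3 (against 20% of all genes tested). The summed level of the 9 listed genes was 179 CPM there and 37.8 to 54.1 CPM in the other 5 libraries. Dct, an enzyme of melanin synthesis, was at 33.1 CPM in WT replicate 3 and at 1.12 to 3.23 CPM elsewhere. Mitf, the master regulator of melanocytes, was also highest in WT replicate 3 and lay at 14.8 to 29.5 CPM in the other 5 libraries. WT replicate 3 was the second highest library for Sox10. KO replicate 2, the highest for Sox10, had a summed melanocyte level of 54.1 CPM, second of the 6 libraries, with WT replicate 2 at 53.7. Most of the 54.1 CPM was Mitf (26.3 CPM) and Kit (23.3 CPM). By mean log2(CPM + 0.5) of the list KO replicate 2 (1.95) lay below WT replicate 3 (4.64), KO replicate 1 (2.01) and KO replicate 3 (1.98). In KO replicate 2 Dct was at 1.12 CPM, its lowest, and Tyr, the first enzyme of melanin synthesis, at 0.280 CPM. Tyrp1 (1.40 CPM), Pmel (1.68 CPM) and Kit were second there only to WT replicate 3. The log2 fold change of Sox10 without WT replicate 3 was 0.65, and without KO replicate 2 it was 0.15. The part of melanocytes in the level of Sox10 was not tested.

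Over all genes tested 43.3% had a difference above 0, and 2.88% an unadjusted p below 0.05, as a background for the lists that follow. Fat cells also express S100b, and all 12 adipocyte genes tested had a difference below 0, with a median log2 fold change of -0.82 and 4 with an unadjusted p below 0.05 (Fabp4, Retn, Lpl and Pparg). The summed level of that list was 782 to 1212 CPM in WT and 457 to 1083 CPM in KO, lowest in KO replicates 1 and 3, while S100b was highest in KO replicate 3. Skeletal muscle of the ear, which carries motor nerve, had 12 of 12 genes with a difference below 0 and 3 with an unadjusted p below 0.05 (Myh1, Mb and Mylpf). Its summed level was 7773 CPM in KO replicate 1, 9908 CPM in KO replicate 2 and 12843 to 16545 CPM in the other 4 libraries. The part of muscle and its nerve in the level of Mbp was not tested. The fibroblast, endothelial and keratinocyte lists had medians of -0.09, -0.16 and 0.25, with Col1a1 higher and Tek lower at an unadjusted p below 0.05. The log2 fold changes of Lpl, Ttn, Col3a1, Pecam1 and Krt10, the genes of highest CPM in these lists, were -0.83, -0.39, 0.38, -0.26 and 0.38. Hair follicle genes were highest in WT replicate 3 in 15 of 15 (against 20% of all genes tested), and 0 had an unadjusted p below 0.05. Their fitted difference was above 0 in 14 of 15, with a median log2 fold change of 2.49. Summed, the hair follicle genes made 28.6 and 33.6 CPM of WT replicates 1 and 2, 22867 CPM of WT replicate 3 and 965 to 9078 CPM in KO, and Tchh (trichohyalin) led them by CPM.

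**Figure D4:**
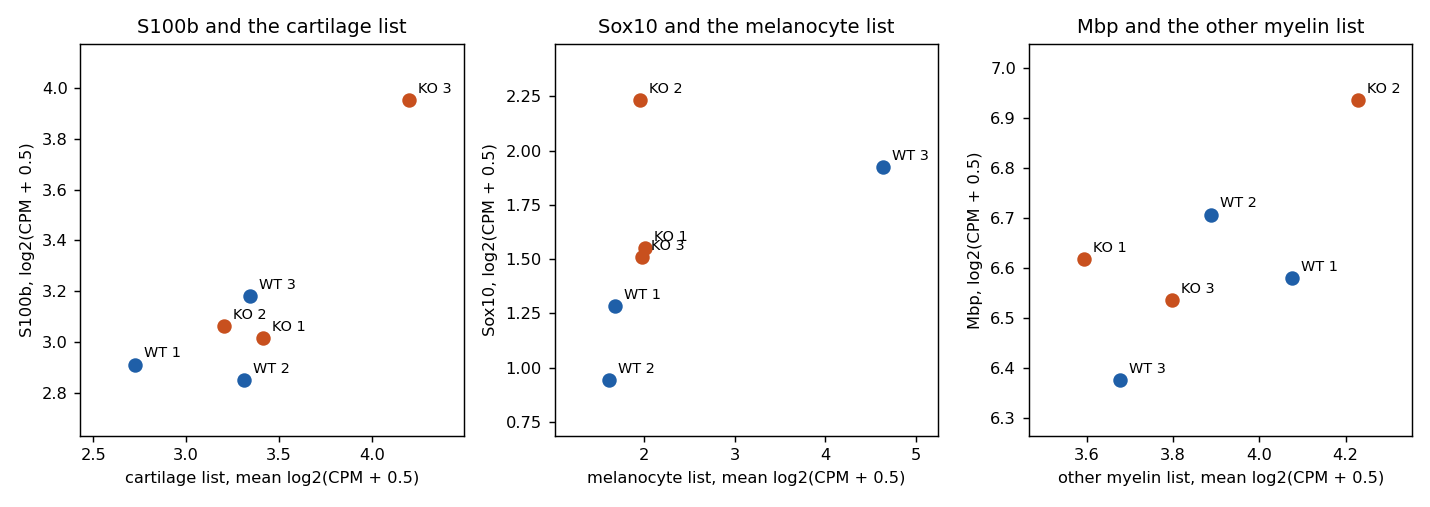
Log2(CPM + 0.5) of S100b, Sox10 and Mbp in each library against the mean log2(CPM + 0.5) of the cartilage, melanocyte and other myelin lists (WT blue, KO orange). KO replicate 3 is highest on both axes for S100b and cartilage, KO replicate 2 on both axes for Mbp and other myelin genes, while for Sox10 the highest library (KO replicate 2) and the highest melanocyte library (WT replicate 3) differ.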

How the data were processed

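RNA of bitten ear skin was sequenced by the study from paired-end libraries. The authors trimmed the reads, aligned them to mm10 with STAR (2.7.3a) and quantified Ensembl transcripts by expectation-maximization in Partek Flow. The deposited values are gene-level CPM, counts divided by the library total with an offset of 0.0001, which was subtracted here. Depth was read from the step between low values, of which 91.6% to 92.7% were whole reads within 0.1, so reads are estimates and intervals from them cover counting error only. Gene positions are those of the table, with listed ends lowered by 1.

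For genes whose mean reached 1 CPM, log2(CPM + 0.5) was compared, KO against WT, with limma (3.58.1, R 4.3.3; eBayes with trend, two-sided) on all 6 libraries, with Benjamini-Hochberg adjustment over 14306 genes. Intervals (95%) are from that model, and their coverage was not tested. The model was run on data simulated with the same spread for every gene. There 47.2% of genes with a log2 change of 1 passed the adjustment. With no change simulated, 4.9% of genes had an unadjusted p below 0.05 in limma. Fold changes on the log2(CPM + 0.5) scale understate the change of low genes. The 8 genes and all lists were chosen with earlier results of these data known, so no list was tested as a set. Genes of the wider lists are named if they had an unadjusted p below 0.05, one of the 3 highest or lowest fold changes or one of the 5 highest mean CPM, genes of other cell types if they had such a p or the highest mean CPM of their list, and genes of similar pattern as the 10 with the highest r. Scn7a, Egr2, Cadm1, Stmn2, Dct, Tyr, Col2a1, Krt71, the GDNF receptor genes and the 5 listed for r were named for their known roles, after their values were seen. Tyrp1, Pmel and Kit were also named after their values were seen. Single values of 2 myelin genes of the lists are not reported here and were not drawn, and counts and medians of the lists include them.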

Additional observations from a re-analysis of the deposited data

How the results depend on the processing

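With other pseudocounts (0.1 and 2), filters, scalings, variance models, the replicate block or 1 library left out, 0 of 101 fitted differences of single members reached an unadjusted p below 0.05 (smallest 0.144) and 93 kept their direction. The 8 that turned were Prx with quantile normalization (0.020), Prx when 1 library was left out (range -0.29 to 0.11), Pmp22 (-0.22 to 0.13), Cdh19 (-0.10 to 0.57) and Mag (-0.23 to 0.84). The median of the members tested, 5 to 8 by setting, ranged from -0.04 to 0.35 and that of the wider set from -0.07 to 0.10. Over all genes, 232 were higher at an unadjusted p below 0.05 with quantile normalization, against 152. With 1 library left out, lower genes ranged from 147 to 395, higher genes from 89 to 313 and genes past the adjustment from 0 (without WT replicate 2) to 16 (without WT replicate 3). Of the calls, 63.1% were lower, against 50.6% after median-of-ratios rescaling and 45.4% after quantile normalization. The sources used here do not say whether WT and KO libraries of the same number were paired. The correlations of their deviations were 0.38, -0.31 and -0.22 for numbers 1, 2 and 3. Between unlike numbers they ran from -0.38 to 0.45, and so few values cannot decide whether libraries were paired. With the replicate number as a block 414 genes were lower, and 0 members were called. The cause was not tested. Mag with 0 to 10 reads and Gfra3 with 0 to 7 reads per library rest on few reads.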
